A study of Mus musculus with 6 samples.

Results

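The strongest constitutive CTCF regions of mouse embryonic stem cells were described here. They were the regions of the authors' joined table that lay on chromosomes 1 to 19 or X, had an authors' mean of at least 600, and overlapped by at least 1 bp a peak of each of the 4 CTCF peak lists. The authors' mean is the average of the scaled read numbers of a region over the 4 libraries. The rule selected 1210 of 57662 regions, which was 3.99% of the 30312 regions on these chromosomes with a peak in all 4 lists. The other 29102 regions with a peak in every list served for comparison.

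CTCF is a DNA-binding protein with a row of zinc fingers that reads a long, directional motif. It stops the cohesin complex as that complex extrudes chromatin loops, and so marks many loop anchors and domain boundaries. Its sites are shared widely between cell types, and a part of them contains CpG dinucleotides, whose methylation can weaken binding. O-GlcNAc is a single sugar that the enzyme OGT adds to serine or threonine of nuclear proteins.

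All cells were mouse embryonic stem cells, pluripotent cells of the early embryo, grown in medium with serum and LIF. They carried the auxin-degradable CTCF-EGFP-AID in place of endogenous CTCF, which was degraded and replaced by a vector-encoded protein. WT_CTCF cells received the wild-type protein, and MUT_CTCF cells received a CTCF with threonine 668 changed to alanine, which removes a site of O-GlcNAc. There were 2 CTCF ChIP-seq libraries in each group and 2 input libraries, which were not analysed here. Picked clones with similar amounts of CTCF were used, so genotype and clone cannot be told apart in these libraries. The study calls its replicates biological, and a p-value here covers only the spread between these libraries.

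The peak lists held 49987 and 54001 peaks for WT_CTCF and 33939 and 32712 peaks for MUT_CTCF. Every list began at a score of 13, and its median score lay between 226 and 281. The score of a peak is an integer set by the caller, whose definition is not given in the sources used here. It is not a read count. Read depth is unknown here. A lower score is therefore reported as a lower score and not as less CTCF on DNA. From spike-in normalised ChIP-seq, the paper reports a significant global increase in binding by the mutant CTCF. Its immunoblots also showed more CTCF bound to chromatin in MUT_CTCF cells. The scores described here were not used to test that result.

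Of 1217 regions with a mean of at least 600, 3 lay off these chromosomes and 4 missed at least 1 peak list. The region chr2:98507257-98507449, with an authors' mean of 5020, scored 622 and 747 in WT_CTCF and had no peak in either MUT_CTCF list. The region chr11:106993291-106993978, with a mean of 1033, scored 3429 and 3780 in WT_CTCF, scored 231 in MUT_CTCF replicate 1 and had no peak in MUT_CTCF replicate 2. Thus a high mean did not always come with a peak in every list. Just inside the threshold lay regions near Gm9049 (600), Fermt2 (600.25) and Fdxr (600.25), and just outside lay regions near Sparc, Fut8 and Slc17a7, each with a mean of 599.75. The members' mean ran from 600 to 5549 with a median of 793, against a median of 199.5 in the other regions.

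The sequences below carry the description that follows. They are the best match to the CTCF core motif in members of the highest mean, with the 13 core bases in capitals and 8 flanking bases on each side in lower case. All were read from the NCBIM37 genome, which is mm9, 5′ to 3′ on the strand of the match, with the coordinates of the 13 core bases.
Gdf15, chr8:73153794-73153806, minus strand: ggtagccgCCGGCAGGGGGCGccgaagcg
Acbd4 and Plcd3, chr11:102964129-102964141, plus strand: gtgggtttCCACCAGGGGGCGcgaggact
Tac4, chr11:95120597-95120609, plus strand: cggttcggCCAGTCGGGGGCActgctcgg
near Gm5533, chr1:183819087-183819099, plus strand: gacattagCCAGCAGAGGGCGctgcctaa
H2-DMa, chr17:34272364-34272376, plus strand: ccgaccttCCACCAGGGGGCGgaggtctc
Trp53 and Wrap53, chr11:69392992-69393004, plus strand: ctccctggCCTGCAGAGGGCGcataattt
near Slc46a1, chr11:78267351-78267363, plus strand: cctgcttgCCAGAAGAGGGCAccagatct

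The core is the shared centre of the longer motif, and a match here allowed at most 1 mismatch on either strand. A match was found in 989 of 1210 members (81.7%) and in 69.9% of the other regions. A match without mismatch was found in 31.1% of members and 19.7% of the others. In other regions with a mean of 400 to 600 these shares were 77.9% and 28.8%. In members with a mean of 600 to 800 they were 81.7% and 29.9%. Windows of the same length shifted by 5000 bp to either side held a match in 11.98% of cases for members and 5.65% for the others. The members were wider, with a median of 884.5 bp against 583 bp, and matches per kb were alike at 1.21 and 1.24. Within 150 bp of the mean summit, at least 1 match lay in 70.0% of members and 68.3% of the others. Only matches inside the region were counted, so this window lessens the part of width but does not remove it.

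The strongest regions differed from the rest in how many matches lay close together. In 146 members (12.1%) there were 2 or more separate matches within 150 bp of the summit, against 308 of the other regions (1.06%). The share was higher in each class of higher mean, from 0.581% of regions with a mean below 100, through 2.54% at 400 to 600 and 4.21% at 600 to 800, to 19% at 1000 to 1500. It was 36.1% of the 144 members with a mean of at least 1500. The median mean was 1307 in members with 2 or more matches near the summit, 755.5 with 1 match and 777.5 with none. Matches outside the region were again not counted. These shares are a description, because regions are not replicates.

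**Figure D1:**
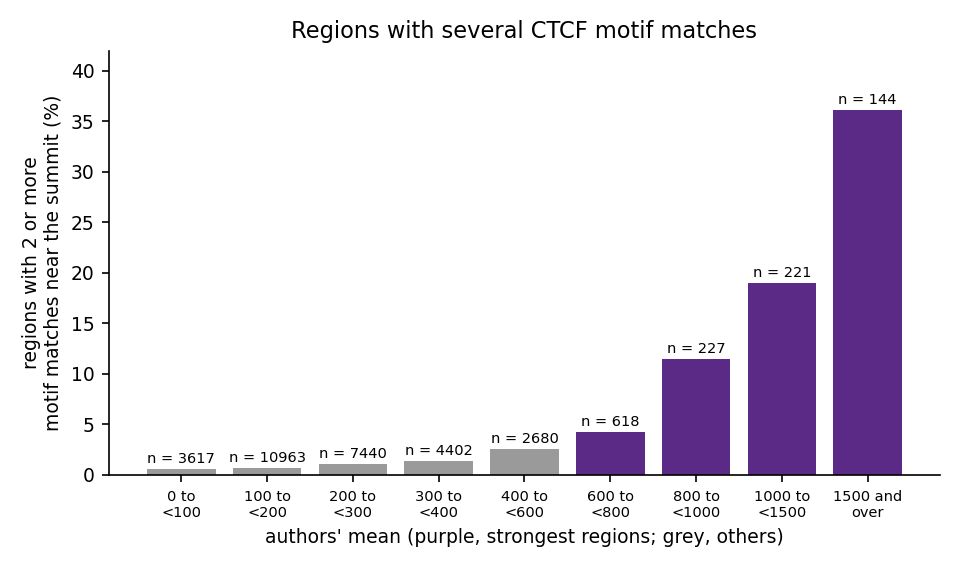
Share of regions with 2 or more CTCF core motif matches within 150 bp of the mean summit (y axis, percent), by class of the authors' mean (x axis). Purple bars are the strongest regions, grey bars the other regions with a peak in all 4 lists, and n is the number of regions. The bars rise from 0.581% in the lowest class to 36.1% in the highest.

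In 135 members with exactly 2 matches near the summit, the matches lay a median of 60 bp apart from start to start, and 68.9% of pairs were 30 to 80 bp apart. In 300 such regions among the others the median was 80 bp and the share was 42.3%. Both matches faced the same way in 93 of the 135 members, towards each other in 24 and away from each other in 18. In the others these numbers were 189, 49 and 62. Pairs of high mean outside exons show the layout, with each core in capitals and the strand as named.
near Ppp1r1b, chr11:98204046-98204121, plus strand, same direction: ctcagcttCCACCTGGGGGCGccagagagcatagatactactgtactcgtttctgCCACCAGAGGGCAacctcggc
near Rbm19, chr5:120552932-120553006, minus strand, same direction: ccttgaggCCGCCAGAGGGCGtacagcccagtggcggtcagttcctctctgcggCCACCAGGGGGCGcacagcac
near Caln1, chr5:131329393-131329467, minus strand, same direction: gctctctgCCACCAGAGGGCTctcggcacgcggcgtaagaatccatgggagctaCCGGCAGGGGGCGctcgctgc
Gm20388, intron, chr8:124275462-124275539, plus strand, towards each other: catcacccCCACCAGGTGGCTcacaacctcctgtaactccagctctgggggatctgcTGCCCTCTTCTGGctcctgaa

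The first 3 pairs were 46 or 47 bp apart, and the pair in Gm20388 was 49 bp apart. The Gm20388 region also touched a promoter, and the nearest protein-coding start, that of Jph3, lay 1503 bp away. The region near Caln1, 404251 bp from the start of that gene, scored 12695 and 14240 in WT_CTCF and 9562 and 10215 in MUT_CTCF. Both MUT_CTCF libraries lay below both WT_CTCF libraries, as in 96.2% of all regions with a peak in every list. The log2 difference was -0.44 ± 0.08 (SE, limma adjusted p = 0.000524).

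A set of members held arrays of matches. There were 3 or more matches within 150 bp of the summit in 11 members (0.909%) and in 8 of the other regions (0.0275%). In 10 of the 11 members all matches lay on 1 strand, and in 5 the spacing was even to within 2 bp, as in a tandem repeat. Of the 8 other regions, 7 held all matches on 1 strand and 3 were evenly spaced, so this layout was not particular to the members. The members below are named because of their number of matches, after the values were seen. In the reference genome, introns of Ctif, Ctcfl, Erc2 and Sec22c held 7 matches 29 bp apart, 6 matches 32 bp apart, 5 matches 47 bp apart and 7 matches 45 bp apart. A region between genes near Gapt held 4 matches 49 bp apart. The number of repeats in these cells was not measured. By the median count of its 31-base words, each of these 5 regions had 1 copy in the genome. The arrays of 3 of them are shown with every core in capitals.
Ctcfl, intron, chr2:172922884-172923072, minus strand: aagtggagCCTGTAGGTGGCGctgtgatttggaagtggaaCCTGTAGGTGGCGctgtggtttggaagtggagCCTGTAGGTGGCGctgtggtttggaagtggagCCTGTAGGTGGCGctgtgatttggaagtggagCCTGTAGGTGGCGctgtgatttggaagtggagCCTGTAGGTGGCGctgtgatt
Erc2, intron, chr14:28617243-28617459, plus strand: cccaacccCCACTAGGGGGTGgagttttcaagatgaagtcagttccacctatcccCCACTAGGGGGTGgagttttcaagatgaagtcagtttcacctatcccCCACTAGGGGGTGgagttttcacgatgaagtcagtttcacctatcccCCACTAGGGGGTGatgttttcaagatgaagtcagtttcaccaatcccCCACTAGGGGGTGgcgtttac
near Gapt, chr13:111158927-111159102, minus strand: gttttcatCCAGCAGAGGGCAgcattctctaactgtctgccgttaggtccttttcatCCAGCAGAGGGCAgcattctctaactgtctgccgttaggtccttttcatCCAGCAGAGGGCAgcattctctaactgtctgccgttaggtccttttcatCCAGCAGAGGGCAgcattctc

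Ctcfl encodes the germline paralogue of CTCF, Erc2 a scaffold of presynaptic active zones and Sec22c a protein of vesicle transport. The Ctcfl array scored 2552 and 3489 in WT_CTCF and 1545 and 1251 in MUT_CTCF. The Erc2 array scored 8037 and 9631 in WT_CTCF and 6331 and 6590 in MUT_CTCF. The array near Gapt scored 6214 and 6967 in WT_CTCF and 4449 and 3658 in MUT_CTCF. In each of the 3 both MUT_CTCF scores lay below both WT_CTCF scores, as in 96.2% of all regions with a peak in every list. The MUT_CTCF minus WT_CTCF log2 score was -1.10 ± 0.16, -0.45 ± 0.10 and -0.71 ± 0.11 (SE, limma adjusted p = 0.00015, 0.00145 and 0.000216).

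The base composition of the core also differed. Counting from 1 at the 5′ end of the core, position 8 was G in 55.9% of members with a match and in 41.2% of other regions with a match. The last position, 13, was G in 57.8% of members and 44.2% of the others, and A in 41.2% and 54.0%. Together with the C before it, G at the last position made a CpG in 51.6% of members and 36.8% of the others. A CpG stood anywhere in the core in 54.5% of members and 38.4% of the others. Methylation was not measured. The MUT_CTCF minus WT_CTCF log2 score had a median of -1.09 in members with G at the last position and -1.05 with A. In the other regions the order was opposite, at -1.16 with G and -1.21 with A.

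Regions of the strongest set lay in gene-rich and CpG-rich sequence. Their median G+C content was 49.6%, against 45.7% in the other regions, and the 301 bp around their summit held a median of 7 CpG against 3. Promoters, taken as 3000 bp upstream of a transcript start to the start itself, were touched by 346 members (28.6%) and by 14.8% of the others. The 5′ UTR was touched by 12.8% of members and 3.13% of the others, and any exon by 30.99% and 15.1%. The shares at promoters and 5′ UTRs rose with the mean and were not particular to the members. In other regions with a mean of 400 to 600 they were 24.7% and 10.7%. In members with a mean of 600 to 800 they were 27.2% and 11.7%. Introns, without any exon, held 19.1% of members and 36.7% of the others, and 43.3% and 42.8% were intergenic. Since members are wider, the summit alone was also placed, and it lay in a promoter in 25.1% of members and 13.1% of the others. The members touched promoters of 397 genes, of which 336 are protein-coding. The nearest protein-coding start lay a median of 8835 bp away for members and 16162 bp for the others.

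The members were uneven across chromosomes. Of the regions with a peak in all 4 lists, 10.4% on chromosome 11, 7.72% on chromosome 8 and 5.41% on chromosome 1 were members, or 529 members in all. On the other autosomes the share was 1.86% to 3.89%, and on chromosome X it was 0.795%, with 5 members. The median authors' mean was 283, 258 and 244 on chromosomes 11, 8 and 1, between 185 and 214 on the other autosomes and 121 on X. The scores of all 4 libraries moved in the same way. On chromosomes 1, 8 and 11 the median score was 1.22 to 1.43 times that of all these regions, on X 0.490 to 0.544 times, and on the other autosomes 0.856 to 1.05 times. Chromosome copy number was not measured and its part was not tested.

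After each mean was divided by the median of its chromosome and brought back to the common scale, 973 regions reached 600, 910 of them members. The share on chromosomes 1, 8 and 11 was then 24.0% in place of 43.7%, and regions on these chromosomes made up 21.8% of all regions in the 4 lists. The shares by chromosome then ran from 2.31% to 4.06%. Members on chromosomes 1, 8 and 11 held 2 or more matches near the summit in 5.67% of cases and members elsewhere in 17.0%. The share of regions with several matches was 15.1% under the scaled rule. The genotype difference was alike in both sets, with a median MUT_CTCF minus WT_CTCF log2 score of -1.07 on these chromosomes and -1.09 elsewhere.

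**Figure D2:**
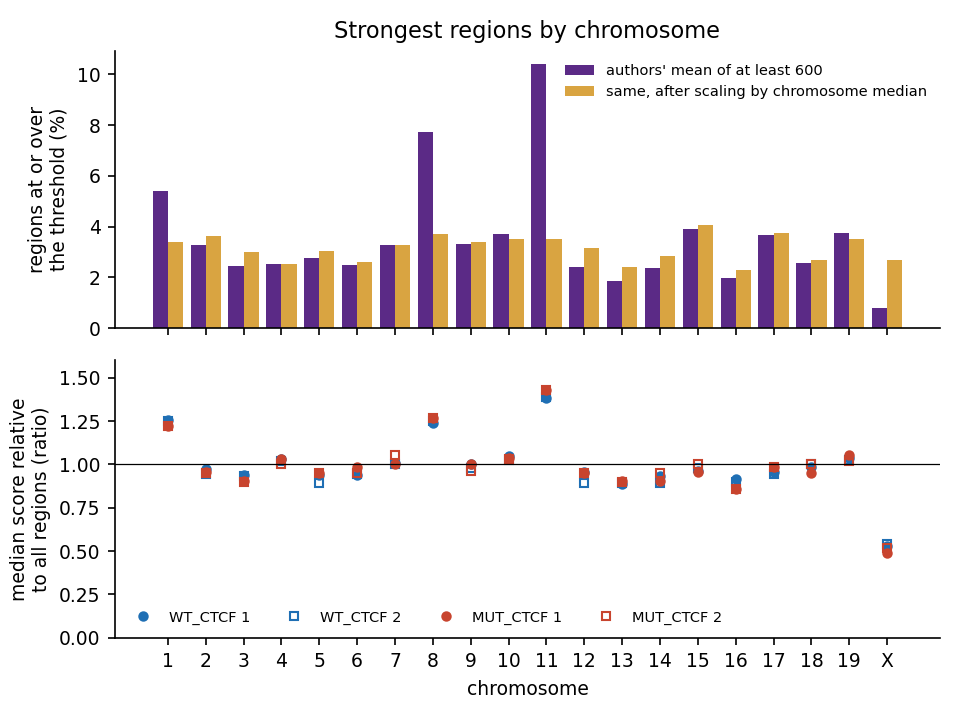
Upper panel, share of regions with a peak in all 4 lists (y axis, percent) that reached a mean of 600, by chromosome, as deposited (purple) and after division by the chromosome's median (ochre). Lower panel, median score of a chromosome relative to all regions (y axis, ratio) in each of the 4 libraries, in which chromosomes 1, 8 and 11 stand at 1.22 to 1.43 and X at 0.490 to 0.544 in every library.

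Neighbouring members lay a median of 405266 bp apart, and 52 of 1190 gaps were under 10000 bp. Among 794 pairs of neighbouring members with a motif of 1 direction, 25.4% pointed towards each other, 25.1% away from each other and 49.5% the same way. In the other regions these shares were 25.1%, 25.1% and 49.9%. The 3 shares of the members lay within 1 percentage point of those of the others.

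Peaks of the members ranked near the top of each list. The rule itself favours this, since it selected members on read numbers of the same 4 libraries. With WT_CTCF the median score was 2460 and 2683, and with MUT_CTCF it was 1233 and 1209. In the other regions it was 553 and 587 in WT_CTCF and 250 and 237 in MUT_CTCF. Within its own list, the median member stood at percentile 98.6 and 98.8 in WT_CTCF and 97.9 in both MUT_CTCF libraries. Members below the 90th percentile numbered 90 and 67 in WT_CTCF and 230 and 244 in MUT_CTCF, and none lay below the median of a WT_CTCF list while 10 and 16 did so in MUT_CTCF. Percentiles refer to lists of unequal length. Among the regions with a peak in all 4 lists, the median percentile of members differed by -0.0796 between MUT_CTCF and WT_CTCF, against -0.785 in the whole lists. The lowest score of any member was 483 and 507 in the WT_CTCF lists and 90 and 84 in the MUT_CTCF lists, so strength by read number and by score did not select the same regions.

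**Figure D3:**
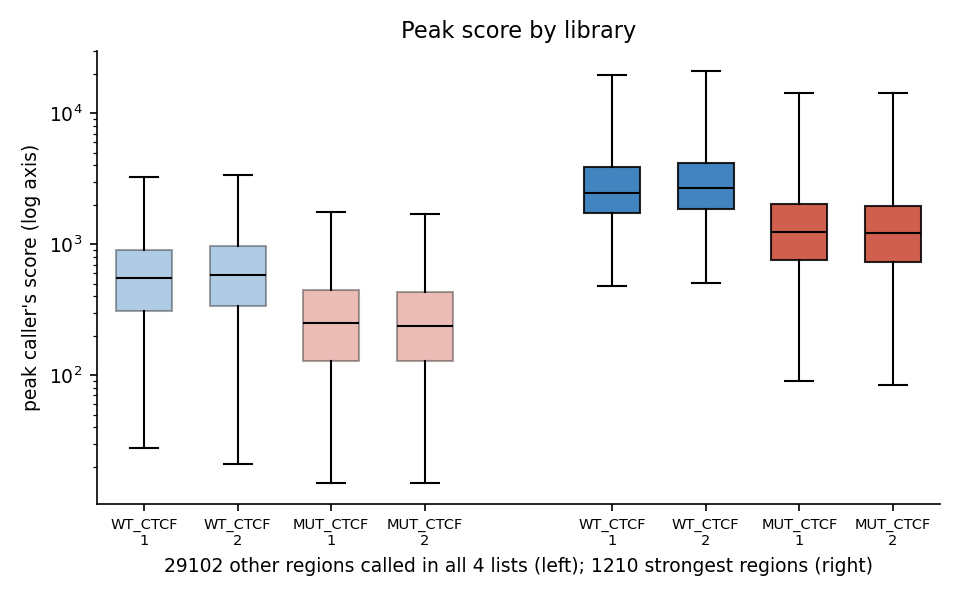
Peak score (y axis, log scale) in each of the 4 libraries for the 29102 other regions (left) and the 1210 strongest regions (right). Boxes give quartiles, the line the median and whiskers the whole range. Both sets sit lower in the MUT_CTCF libraries (red) than in the WT_CTCF libraries (blue), with medians of 1233 and 1209 against 2460 and 2683 in the strongest regions.

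Replicates of a genotype ordered the members alike. Over the 1210 members, which share library and local sequence, Spearman's rho of the score was 0.982 between WT_CTCF libraries and 0.978 between MUT_CTCF libraries. Between genotypes it was 0.879 to 0.884. Of the 100 highest members of a library, 93 were shared by the WT_CTCF libraries, 91 by the MUT_CTCF libraries and 79 to 83 between genotypes.

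The comparison of genotypes concerned the score alone, since the rule admitted only regions with a peak in both MUT_CTCF lists. Averaged over the 2 WT_CTCF libraries, the median log2 score of the members was 11.33 ± 0.09 (SD, n = 2). For MUT_CTCF the average was 10.25 ± 0.02 (SD, n = 2), a difference of -1.07. The exact two-sided permutation test gave p = 0.333, the smallest p that 2 libraries against 2 allow. In the other regions the means were 9.15 ± 0.06 and 7.93 ± 0.05, a difference of -1.23. Across members the difference had a median of -1.08, with quartiles of -1.37 and -0.81, and in 3 members it was above 0.

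In 1197 members both MUT_CTCF scores lay below both WT_CTCF scores, and in none did both lie above. Of all regions with a peak in every list, 96.2% showed the first pattern and 0.218% the second. With limma across all 30312 regions, 1190 members had a lower score in MUT_CTCF at an adjusted p below 0.05, where 90.8% of all regions did so. In the same fit 0 members were higher, also at an unadjusted p below 0.05 and without a mean trend in the variance, against 0.0396% of all regions. Without WT_CTCF replicate 2 the limma fit called 0 members lower, while leaving out WT_CTCF replicate 1 gave 892 and leaving out a MUT_CTCF library gave 1107 or 1090. In these fits the spread came from the 2 libraries of the other group, and the lone library was assumed to vary like them. The lower score was thus general to the lists, and its rate in members was near that of all regions.

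A second scale therefore set each member against the rest of its library. Each library was centred on its median over regions in all 4 lists, which removed a genotype difference of -1.21 on the log2 scale. On this scale limma called 394 members higher and 157 lower in MUT_CTCF at an adjusted p below 0.05, where 10.9% of all regions were higher and 8.49% lower. With scores quantile normalised over the same regions, 177 members were higher and 279 lower, where 7.18% of all regions were higher and 8.04% lower. The median centred difference over members was 0.13 on the log2 scale, and the median after quantile normalisation was -0.04. The relative direction of the set as a whole thus depended on the scaling. The quartiles of the centred difference were -0.15 and 0.40 in members and -0.32 and 0.33 in the others. Call rates of members and of all regions do not compare sizes of change, since the mean trend sets the error by score level. Without WT_CTCF replicate 1 the centred fit called 270 members higher and 98 lower, without WT_CTCF replicate 2 it called 262 and 91, and without a mean trend in the variance 28 and 43.

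**Figure D4:**
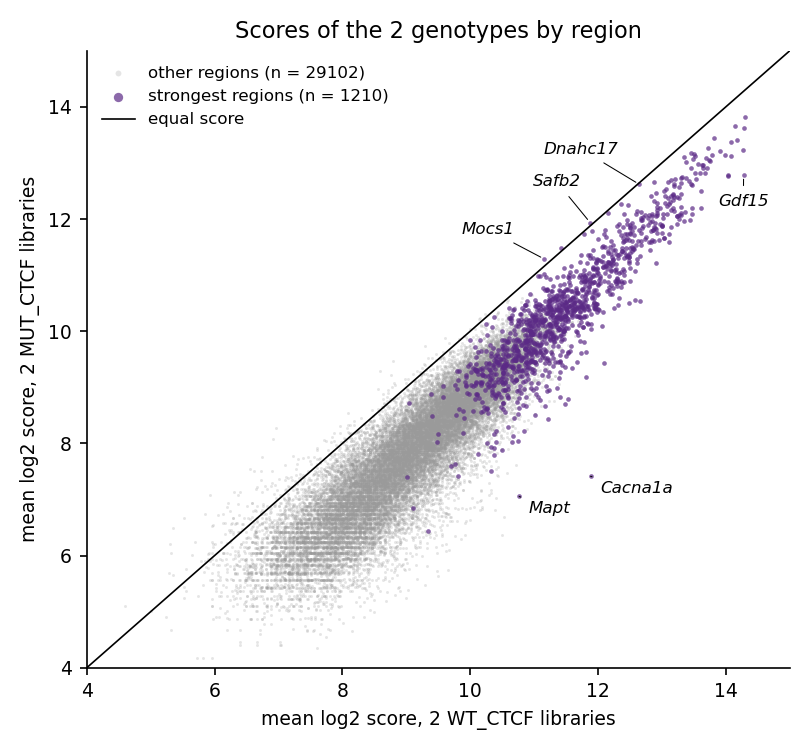
Mean log2 score of the 2 MUT_CTCF libraries (y axis) against that of the 2 WT_CTCF libraries (x axis) for 1210 strongest regions (purple) and 29102 others (grey). The line marks equal scores, which 3 strongest regions exceed, and of the strongest regions Cacna1a and Mapt lie farthest below it.

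The 12 members of the highest mean had WT_CTCF scores of 11003 to 20934 and MUT_CTCF scores of 3803 to 14421. In each of them both MUT_CTCF scores lay below both WT_CTCF scores, as in 98.9% of members and 96.2% of all regions. The first was the region chr8:73153239-73154715 on exon and 3′ UTR of Gdf15, which encodes a stress-induced cytokine. Its authors' mean was 5549, and it scored 18853 and 20934 in WT_CTCF and 7418 and 6706 in MUT_CTCF. The score fell by 1.49 ± 0.08 on the log2 scale (SE; limma adjusted p = 6.08e-06), and on the centred scale the difference was -0.28 ± 0.06 (adjusted p = 0.00045).

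The region chr11:102963436-102964553 covers the promoter and 5′ UTR of Acbd4, an acyl-CoA binding protein, and the promoter of Plcd3, a phospholipase C. With a mean of 3993 it scored 16447 and 18357 in WT_CTCF and 9012 and 8905 in MUT_CTCF. The region chr11:95119627-95121019 in the promoter of Tac4, a tachykinin precursor, scored 11003 and 11280 in WT_CTCF and 3803 and 4265 in MUT_CTCF. Both fell, with log2 differences of -0.96 ± 0.08 and -1.47 ± 0.09 (SE; limma adjusted p = 1.14e-05 and 6.28e-06). On the centred scale they differed in direction, at 0.26 ± 0.06 (adjusted p = 0.00118) and -0.26 ± 0.08 (adjusted p = 0.0124).

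The region chr11:69392624-69393994 covers the promoters and 5′ exons of Trp53, which encodes the tumour suppressor p53, and of Wrap53, which starts on the opposite strand and encodes a telomerase component. It scored 13857 and 14956 in WT_CTCF and 11205 and 11154 in MUT_CTCF, the smallest fall of the 12, by 0.36 ± 0.07 (limma adjusted p = 0.000851). The region chr17:34271902-34272822 at the promoter of H2-DMa, which loads peptides on MHC class II molecules, scored 15785 and 15127 in WT_CTCF and 9824 and 9252 in MUT_CTCF. It fell by 0.70 ± 0.07 (limma adjusted p = 2.82e-05).

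Among regions without a gene, chr1:183818693-183819590, 35373 bp from Gm5533, kept the highest MUT_CTCF scores of the 12. It scored 19708 and 20746 in WT_CTCF and 14370 and 14421 in MUT_CTCF and fell by 0.49 ± 0.07 (limma adjusted p = 9.14e-05). The region chr11:98203188-98204623 near Ppp1r1b, an inhibitor of protein phosphatase 1, scored 15898 and 16472 in WT_CTCF and 9160 and 8874 in MUT_CTCF. The region chr5:120552571-120553395 near Rbm19, which acts in ribosome assembly, scored 16766 and 17942 in WT_CTCF and 10830 and 10416 in MUT_CTCF. The region chr11:78266890-78268239 near Slc46a1, the proton-coupled folate transporter, scored 19245 and 20325 in WT_CTCF and 10112 and 9236 in MUT_CTCF. All 3 regions fell, with log2 differences of -0.84 ± 0.07, -0.71 ± 0.07 and -1.03 ± 0.07 (SE; limma adjusted p = 1.3e-05, 2.44e-05 and 8.53e-06). The pairs of cores near Ppp1r1b and Rbm19 are those printed above.

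Promoter regions of Gbas and Fam129b, and the 3′ UTR of 6330578E17Rik, completed the 12. Gbas on chr5:130230142-130231206 scored 12266 and 13469 in WT_CTCF and 7762 and 7564 in MUT_CTCF. Fam129b on chr2:32767624-32768628 scored 19592 and 20526 in WT_CTCF and 12629 and 12557 in MUT_CTCF. 6330578E17Rik on chr1:37476034-37476918 scored 17181 and 18905 in WT_CTCF and 12673 and 13327 in MUT_CTCF, and no core match within 1 mismatch lay in it. They fell, with log2 differences of -0.75 ± 0.08, -0.67 ± 0.07 and -0.47 ± 0.07 (SE; limma adjusted p = 2.92e-05, 2.27e-05 and 0.000207).

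The members of the lowest MUT_CTCF minus WT_CTCF score had a G+C content of 58.0% to 74.3%, and 4 of the 5 touched a 5′ UTR. Their differences are given as a description, since the members were chosen by them. The region chr8:87163070-87163699, which has 71.6% G+C and touches Cacna1a, the pore subunit of a neuronal calcium channel, scored 3457 and 4133 in WT_CTCF and 158 and 184 in MUT_CTCF, or 22.2-fold lower. It stood at percentile 99.3 and 99.4 of the WT_CTCF lists and 37.1 and 41.2 of the MUT_CTCF lists. The region chr11:104092348-104092873 on the promoter and 5′ UTR of Mapt, the microtubule-binding protein tau, has 74.3% G+C. It scored 1538 and 1972 in WT_CTCF and 132 and 134 in MUT_CTCF, or 13.1-fold lower. The best matches of both are shown with the core in capitals.
Cacna1a, chr8:87163303-87163315, minus strand: gcggcgagCCGCCAGGGGGCGctgcggga
Mapt, chr11:104092652-104092664, minus strand: ccttccgaCCGCTAGGGGGCGcacgcgag

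The next members, at promoters of 8030462N17Rik, Fam116b and Erlin2, scored 7.46-fold, 6.98-fold and 6.89-fold lower in MUT_CTCF. Erlin2 encodes a lipid-raft protein of the endoplasmic reticulum, and its region scored 2297 and 2484 in WT_CTCF and 373 and 322 in MUT_CTCF. 8030462N17Rik scored 621 and 677 in WT_CTCF and 90 and 84 in MUT_CTCF. Fam116b scored 1285 and 1272 in WT_CTCF and 206 and 163 in MUT_CTCF.

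At the other end the genotypes overlapped. The region chr17:49421652-49422355, 145332 bp from the start of Mocs1, a molybdenum cofactor gene, scored 1957 and 2683 in WT_CTCF and 2687 and 2321 in MUT_CTCF. The region chr17:56692252-56693012 near Safb2, which encodes a nuclear scaffold protein, scored 3553 and 3988 in WT_CTCF and 3789 and 4051 in MUT_CTCF. The region chr6:117625215-117626021 near Gm7292 scored 2527 and 2985 in WT_CTCF and 2936 and 2770 in MUT_CTCF. These were the 3 members with a difference above 0, of 0.12, 0.06 and 0.05 on the log2 scale. Exonic regions of Dnahc17, a dynein heavy chain, and Ksr2, a scaffold of Ras signalling, followed. Dnahc17 scored 6113 and 6741 in WT_CTCF and 6425 and 6144 in MUT_CTCF, and Ksr2 scored 3568 and 3435 in WT_CTCF and 3551 and 3273 in MUT_CTCF.

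**Figure D5:**
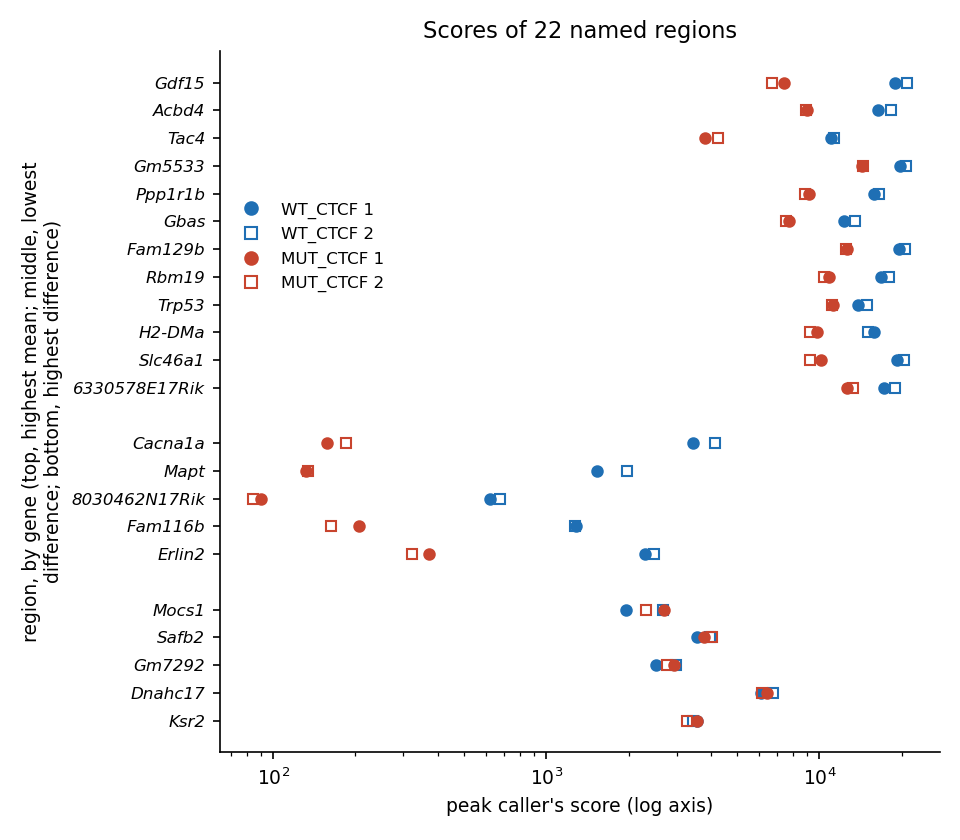
Peak score (x axis, log scale) of 22 members in the 4 libraries, blue for WT_CTCF and red for MUT_CTCF, filled circles for replicate 1 and open squares for replicate 2. The 12 members of the highest mean stand on top, followed by the 5 of the lowest and the 5 of the highest difference, whose genotypes overlap.

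The genotype difference was larger in the classes of highest G+C content. In the 54 members with at least 60% G+C, the median score was 2233 and 2125 in WT_CTCF and 521 and 517 in MUT_CTCF. In the 406 members with 45% to 50% G+C it was 2546 and 2757 in WT_CTCF and 1213 and 1186 in MUT_CTCF. From the class below 40% G+C upwards in steps of 5 percentage points, the median MUT_CTCF minus WT_CTCF log2 score of members was -1.005, -1.09, -1.08, -0.98, -1.25 and -1.73. Thus no trend was seen below 55%. In the other regions the medians were -1.25, -1.20, -1.17, -1.11, -1.09 and -1.79. Of the 54 members with at least 60% G+C, 51.9% were lower and 7.41% higher in the centred limma fit, and of 308 other regions of that class 43.2% were lower and 5.52% higher.

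By CpG number in the 301 bp around the summit, the median difference was -1.004 in 369 members with 0 to 4 CpG, -1.05 in 447 with 5 to 9 and -1.05 in 189 with 10 to 14. It was -1.21 in 87 members with 15 to 19 and -1.49 in 118 with 20 or more. In the last class the centred fit called 46 members (39.0%) lower and 19 (16.1%) higher, and quantile normalised scores called 66 lower and 11 higher. Of 430 other regions with 20 or more CpG, 47.7% were lower and 7.21% higher in the centred fit, with a median difference of -1.80. In the class with 0 to 4 CpG the centred fit called 28 lower and 144 higher, and quantile normalised scores 60 lower and 62 higher. More CpG-rich members were lower than higher under both scalings, as were more of the other CpG-rich regions, so this was not particular to the members.

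The 155 members touching a 5′ UTR had a median difference of -1.43, against -1.04 in all other members. In the other regions the values were -1.39 with a 5′ UTR and -1.18 without, so this direction was not particular to the members. Within the members below 60% G+C the values were -1.38 for 122 with a 5′ UTR and -1.03 for 1034 without. In the other regions below 60% G+C they were -1.32 for 785 and -1.18 for 28009. Members in introns had a median of -0.96, with scores of 2749 and 3037 in WT_CTCF and 1415 and 1349 in MUT_CTCF. Other regions in introns had a median of -1.17.

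Members with several matches had a smaller median difference between genotypes. The 146 members with 2 or more matches near the summit had median scores of 5338 and 5914 in WT_CTCF and 2985 and 2905 in MUT_CTCF, and a median difference of -0.90. The 701 members with 1 match had 2444 and 2662 in WT_CTCF and 1233 and 1179 in MUT_CTCF, and a median difference of -1.12. In the other regions the order was opposite, at -1.26 with 2 or more matches and -1.18 with 1. The difference also moved with the mean, from -1.15 in members of 600 to 800 to -0.82 in those of at least 1500, and the parts of mean and match number were not tested apart. Lsm11, a component of the U7 particle that processes histone RNAs, went against this order. Its promoter region chr11:45758208-45758884, with 3 matches, scored 6453 and 6423 in WT_CTCF and 1513 and 1456 in MUT_CTCF and fell by 2.12 ± 0.10 (SE; limma adjusted p = 6.08e-06).

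The members' median peak was narrower in both MUT_CTCF libraries. The median peak width was 819 and 848 bp in WT_CTCF and 666 and 654 bp in MUT_CTCF, a mean of 833.5 ± 20.5 (SD, n = 2) against 660 ± 8.49 bp (SD, n = 2). The exact two-sided permutation test gave p = 0.333, its smallest value. In the other regions the means were 533 ± 19.8 and 387 ± 11.3 bp. A member was split into 2 or more peaks in 51 and 21 cases (4.21% and 1.74%) in WT_CTCF and in 122 and 128 cases (10.1% and 10.6%) in MUT_CTCF. The other regions were also split more often in MUT_CTCF, at 0.722% and 0.670% against 0.436% and 0.244% in WT_CTCF. In 60 members both WT_CTCF libraries had 1 peak and both MUT_CTCF libraries had 2 or more, and in 1 member the opposite was seen. These 2 patterns were counted in members only. Of 165 members with several peaks in any library, 98 (59.4%) held 2 or more matches, against 33.6% of all members. These matches were counted over the whole region, and the part of region width was not tested.

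Summits lay close to the motif in both genotypes. The median distance from summit to the nearest match was 16 and 17 bp in WT_CTCF and 17 bp in both MUT_CTCF libraries, over 989 members, and in the other regions it was 10 bp in WT_CTCF and 11 bp in MUT_CTCF. The mean difference of 0.5 bp in members did not pass the exact two-sided permutation test (p = 1.00, n = 2 per group). Summits of the 2 genotypes lay a median of 9.5 bp apart. Replicates of a genotype lay a median of 5 bp apart, and single libraries of different genotypes 11 bp. In 112 members (9.26%) the mean summits lay more than 100 bp apart, against 0.608% of the other regions. Of the 112, 65 held 2 or more matches, counted over the whole region. Replicates of WT_CTCF lay that far apart in 3.88% of members and replicates of MUT_CTCF in 4.05%. In the other regions these shares were 0.385% and 0.553%. Single libraries of different genotypes lay that far apart in 6.69% to 7.60% of members.

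Members were also counted near listed genes, among them those of well-known CTCF loci. Within 10000 bp of Hox genes, 0 of 19 regions with a peak in all 4 lists were members, and at clustered protocadherins 0 of 59. Of 58 listed protocadherin genes only 25 were found in the annotation. At pluripotency factors the count was 0 of 30. At genes of cohesin and CTCF partners 1 of 28 was a member, the Ctcfl array. At the listed imprinted genes 3 of 49 were members, and the list does not hold every imprinted gene. The rate over all regions was 3.99%, and no inference was drawn from these counts.

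Of the listed imprinted genes, the members lay in an intron of Peg3, between genes near Phlda2 and at the promoter of Grb10. Peg3 is a paternally expressed zinc finger gene, and its region chr7:6679706-6680944 scored 3216 and 2727 in WT_CTCF and 1269 and 1125 in MUT_CTCF. The region near Phlda2, a placental growth regulator, scored 1737 and 2366 in WT_CTCF and 819 and 970 in MUT_CTCF. Grb10 encodes an adaptor of growth factor receptors, and its region scored 2881 and 2926 in WT_CTCF and 1251 and 1215 in MUT_CTCF. All 3 fell, with log2 differences of -1.31 ± 0.13, -1.19 ± 0.17 and -1.24 ± 0.11 (SE; limma adjusted p = 2.33e-05, 0.000125 and 1.78e-05). On the centred scale they did not pass the test (adjusted p = 0.626, 0.923 and 0.916).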

How the data were processed

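CTCF ChIP-seq was analysed from 4 peak lists and 1 joined table. The authors trimmed reads with Trim Galore 0.4.4, aligned them to mm9 with Bowtie2 2.3.4.1, scaled coverage by Drosophila spike-in factors and called peaks per library with MACS2 2.1.1.20160309 subcommands. The deposited score of each peak is the caller's own integer. The authors joined peaks and ran DESeq2 1.38.0, and the deposited mean signal per region is their average over the 4 libraries, in whole multiples of 0.25. Their fold changes, errors and p-values were not used. The number of table columns of samples left unused was 0.

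Groups came from the sample titles. A region took the highest score, and the summit and width, of its peaks in each list. Scores were compared on the log2 scale with no pseudocount and no filter by limma 3.58.1 (R 4.3.3, mean trend, Benjamini-Hochberg over 30312 regions), and medians by exact permutation. The centred fit was also checked on simulated data with the same spread for all regions, which does not test the mean trend. Annotation was GENCODE vM1. Named members were the 12 of the highest mean, 5 of the lowest and 5 of the highest difference, 3 on each side of the threshold and up to 3 per gene list. Members and lists were chosen with earlier results of these data known. A region among the printed pairs is not reported here.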

Additional observations from a re-analysis of the deposited data

How the results depend on the processing

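Over 14 results and 72 alternatives, 54 values kept their direction and their side of the threshold, 2 reversed and 16 moved. Centring turned the median log2 score difference from -1.07 to 0.14, since it subtracts the general difference, and matches without mismatch turned the summit distance difference from 0.5 to -0.5 bp. Leaving out each library in turn gave 0 to 1107 members called lower, with the 0 without WT_CTCF replicate 2, and on the centred scale 91 to 165 lower and 262 to 389 higher. The cause was not tested. Without a mean trend in the variance the centred fit called 43 lower and 28 higher, and quantile normalised scores 279 and 177. The difference in median percentile, -0.785, was -0.0796 among regions in all 4 lists, -2.37 at a mean of at least 400 and -0.191 at a mean of at least 1000. A mean of at least 400 gave a motif in 79.1% and a promoter in 25.9%, and a mean of at least 1000 a promoter in 31.8%. Motifs without mismatch gave 31.1%, promoters of 1000 bp on either side 25.3% and the summit alone 25.1%. With means divided by the chromosome median, 24.0% lay on chromosomes 1, 8 and 11 and 15.1% held several matches. This scaling and the summit alone were chosen after seeing the data.

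Replicate numbers did not pair the libraries (correlation of deviations -0.003 over regions). With a replicate block limma called 1186 members lower and 0 higher, and on the centred scale 160 lower and 399 higher. The block left the differences of medians at -1.07 for log2 score, -0.785 for percentile, -173.5 bp for width and 0.5 bp for summit distance, each with an exact sign-flip p of at least 0.5, the smallest for 2 pairs. Depth is unknown here, and 2 libraries per group limit every comparison.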
